A study of Homo sapiens with 6 samples.

Results

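Alternative 3′ splice sites more than 30 bases apart were followed in HBEC3kt, an immortalised human bronchial epithelial line, with and without the S34F change of the splicing factor U2AF1. A pair was formed by 2 splice junctions of a gene that begin at the same 5′ splice site and end at different 3′ sites, where an exon of the form with the upstream 3′ site runs on to the downstream site. The upstream site is called proximal here, since it lies nearer the shared 5′ site, and its form carries the longer exon. The downstream site is called distal. Of 3248 such pairs in the deposited isoform models, 1672 (51.5%) had at least 10 reads in each of the 6 libraries and were analysed, among 17250 splicing events of all kinds with the same minimum. They lay in 889 genes or loci.

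Long reads of poly(A) RNA, copied to cDNA by Smart-Seq2 and read on a nanopore MinION, were counted per isoform in 3 U2AF1 S34F libraries and 3 wild-type (WT) libraries. Each genotype was represented by 2 cell isolates: isolates 1 and 2 gave replicates 1 and 2, which the labels mark B1, and a further library of isolate 2, marked B2, is replicate 3. P-values therefore rest on the spread between these libraries and not between independent cultures. In the edgeR test of site choice used below, that spread was pooled over all events in 1 trend. A pair's own spread between libraries was not weighed there. S34F replicates 1, 2 and 3 held 811255, 451540 and 1014868 assigned reads, and WT replicates 1, 2 and 3 held 1720292, 1286512 and 1584167. All 8 markers of basal bronchial epithelium were measured, at a summed level of 3800 to 7311 CPM (reads scaled to a common library size) in S34F libraries and 2782 to 4264 CPM in WT libraries. None of the listed secretory, blood, fibroblast or endothelial markers had an isoform with counts, nor did the ciliated markers FOXJ1 and TPPP3. The third ciliated marker reached 2.83 CPM in S34F libraries and 0.595 CPM in WT libraries.

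At the end of an intron, the spliceosome selects an AG dinucleotide that follows a branch point and a stretch of pyrimidines. The U2AF heterodimer marks this place early: U2AF2 binds the pyrimidine stretch and U2AF1 contacts the AG. The serine replaced by phenylalanine in S34F lies in a zinc finger of U2AF1, and in other work cells with this change used introns with T just before the AG less, and those with C or A there more. Where an exon has 2 possible starts, the choice decides whether the stretch between them stays in the messenger RNA, which can add or remove amino acids, shift the reading frame or change an untranslated region.

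The distal site of a pair lies inside the exon of the proximal form, so the end of its intron can be read from an annotated transcript. The sequences below are from GENCODE release 29 transcripts matched by transcript ID and exon lengths, 5′ to 3′. Each holds 20 bases of intron and the first 10 bases of the exon, and capitals mark the AG that ends the intron with the base before it. The first 5 are the distal sites that could be read among pairs with significantly less distal use in S34F cells, shown because the base before their AG varies.
SRP19: gcctaacttctggttccTAGgtaagtcagt
RNF181: tgtgtcttttggaatttGAGgaggaggaga
NSFL1C: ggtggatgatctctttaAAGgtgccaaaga
TRMU: gaccagaccttctttctCAGccaggtttcc
FKBP2: ctggttccgggtcctgaCAGtactgtccat
The next 12 are distal sites with significantly more use in S34F cells and C before the AG. The only other readable site of this kind, in CHCHD7, has A there and is not shown.
PON2: ctttgttgtaaaccaccCAGaattcaagaa
SERBP1: caaatatcttataattaCAGtgacttggat
PPIE: aggcccgctcaaatcctCAGgtgtacatgg
EDF1: gtggctgtggctcatttCAGgcctcaagct
SNRPB: ttgtctggtttcccttaCAGggccccctcc
BUB3: atgtattttcttcattgCAGgtccacctaa
CCNB1: tgaagaatctcttcttcCAGttatgcagca
APOO: aaattggctttcttcttCAGgaaaaactag
ALKBH6: gaccccattgccttcccCAGgtgggcttcc
PSME2: ccttgcaatgtaacccaCAGgctgaggaat
SEC13: caacaggattattttccCAGgaggagttac
METTL17: agtccttgttctcaccaCAGacttatctca

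The sites of a pair lay at least 31 bases apart, with a median of 86 bases and quartiles of 50 and 186. The distance was a multiple of 3, which keeps the reading frame where the stretch is coding, in 665 pairs (39.8%). This count includes pairs outside coding sequence. The 1672 pairs shared 1263 5′ splice sites, of which 1030 had 1 pair and 233 had more. Pairs of the same 5′ site share reads and are not independent. The most at a single 5′ site were 22 pairs of S100A2, a calcium-binding protein of basal epithelium, with sites 31 to 91 bases apart. Both forms carried an annotated transcript ID in 333 pairs and neither did in 249. The distal site fell in coding sequence of every matched transcript that covers it in 790 pairs, in a 5′ UTR alone in 98 and in a 3′ UTR alone in 72. In 259 pairs another isoform of the gene spliced out an intron lying between the sites.

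The share of a pair's reads that used the proximal site had a median of 62.1% over the pairs in S34F cells and 60.2% in WT cells. Proximal reads were counted only from isoforms whose exon reaches the distal site, and distal reads from every isoform with the distal junction. Per library, this median was 61.1%, 61% and 62.9% in S34F replicates 1, 2 and 3, and 60.7%, 60.8% and 60.5% in WT replicates 1, 2 and 3. All S34F medians were above all WT medians, by a small margin. In S34F cells the proximal share was between 5% and 95% in 862 pairs, above 95% in 437 and below 5% in 373. In WT cells it was between 5% and 95% in 935 pairs, above 95% in 416 and below 5% in 321. Pair by pair, the difference S34F minus WT had a median of -0.146 percentage points, with 904 pairs lower and 768 higher in S34F. This median was 0.00219 points when every isoform with the proximal junction was counted, over 2240 pairs. It was -0.0963 points without S34F replicate 1, -0.0499 points without S34F replicate 2 and -0.0856 points without WT replicate 3. The nearby pairs, with sites 30 bases or less apart, had a median of -0.0809 points, with 1031 lower and 934 higher. The median SD between libraries of a genotype was 2.44 points in S34F and 1.86 points in WT, beside a median absolute difference of 1.57 points between genotypes.

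The proximal share differed between genotypes in 30 of the 1672 pairs (1.79%), against 1.08% of all 17250 splicing events, by edgeR's quasi-likelihood test with Benjamini-Hochberg adjustment over all events at 0.05. It fell in S34F cells in 22 pairs (1.32%, against 0.759% of all events whose longer form was called lower) and rose in 8 (0.478%, against 0.319% called higher). The nearby pairs were called in 9 of 1965 cases (0.458%). Whether these shares differ beyond chance was not tested. The change was 10 points or more in 19 of the 30 pairs and under 2 points in 5. Without any adjustment, 215 of the 1672 pairs had an edgeR p below 0.05, against 1642 of all 17250 events.

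In 28 of the 30 called pairs the 3 S34F libraries lay all above or all below the 3 WT libraries. In all 30 the difference had the same sign in B1 and in B2 libraries. Since the pairs were chosen by a test on these same 6 libraries, neither count is separate support for the calls. Over all pairs, 267 (16%) had genotypes that did not overlap, against 14.3% of all events. They split into 152 with lower proximal share in S34F (against 7.97% of all events) and 115 with higher share (against 6.3% of all events). Of these 267 pairs, 59 differed by 10 points or more, 36 lower and 23 higher in S34F. Calls depended on single libraries: 5 of the 30 pairs, in SRP19, RNF181, EDF1, SERBP1 and PPIE, were called whichever library was left out. With S34F replicate 3 or WT replicate 3 left out, the other B2 library has no partner, and 6 pairs were called on the B1 libraries that remain. Limma on log odds called 35 distant pairs (against 1.55% of all events), 22 of them among the 30, while DESeq2 called 1.

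**Figure D1:**
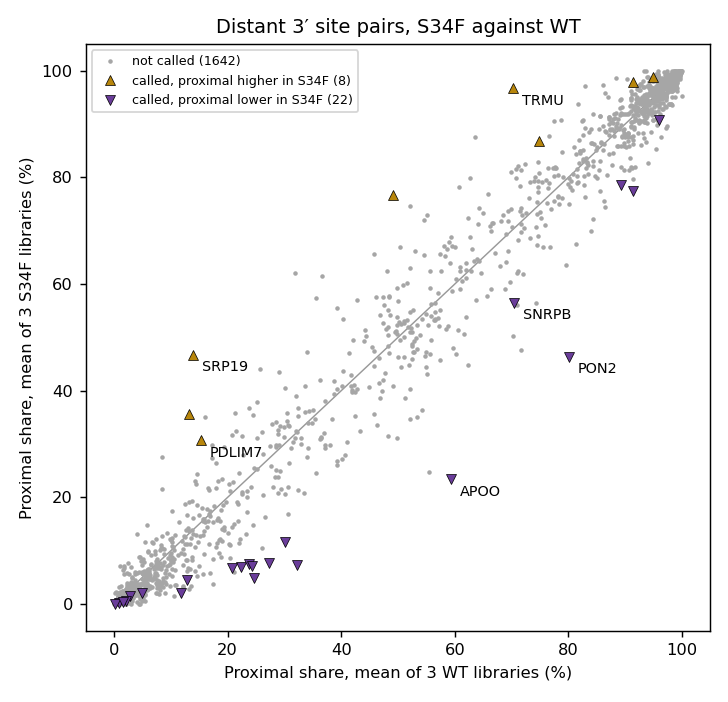
Proximal share of each of the 1672 pairs, in percent, as the mean of 3 S34F libraries and of 3 WT libraries, with the 30 called pairs marked by direction. Most pairs lie near the line of equal shares, and 22 called pairs lie below it (lower in S34F) and 8 above it (higher in S34F).

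The largest rise of the proximal share, in percentage points, was in SRP19, a subunit of the signal recognition particle that brings secreted proteins to the endoplasmic reticulum. Its proximal and distal sites lie at positions 112203069 and 112203101 of chromosome 5, plus strand (hg19, like all positions here), 32 bases apart at the start of the last exon of both forms. The proximal share was 51.5%, 38.6% and 50% in S34F replicates 1, 2 and 3 and 12.7%, 13.3% and 15.9% in WT replicates 1, 2 and 3. Every S34F library stood well above every WT library. The mean was 46.7% ± 7.05 in S34F cells and 13.9% ± 1.69 in WT cells (SD, n = 3 each), a rise of 2.45 in the log2 odds of the proximal form (SE 0.31, edgeR adjusted p = 9.02e-12). The distal site that lost share has T before its AG. Gene counts of SRP19 did not pass the test (log2 fold change -0.91, edgeR adjusted p = 0.129), and in such bulk counts fewer cells and less RNA per cell cannot be told apart.

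RNF181, an E3 ubiquitin ligase, had sites at 85823945 and 85823980 of chromosome 2, plus strand, 35 bases apart in coding sequence. S34F replicates 1, 2 and 3 used the proximal site in 97.6%, 97.6% and 98.2% of reads and WT replicates 1, 2 and 3 in 92.2%, 91.2% and 90.9%. The distal site, with G before its AG, thus took a small share in WT cells and less in S34F cells, with no overlap. The log2 odds ratio was 2.02 (SE 0.30, edgeR adjusted p = 2.83e-08), on 1297 S34F and 2849 WT reads.

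NSFL1C, known as p47, a cofactor of the p97 ATPase in membrane fusion, used its proximal site at 1435777 of chromosome 20, minus strand, in 86.5%, 88.7% and 85.7% of reads in S34F replicates 1, 2 and 3. WT replicates 1, 2 and 3 had 81.9%, 67.9% and 74.7%. All S34F libraries were higher, and the distal site 95 bases on, at 1435682, has A before its AG. The log2 odds ratio was 1.09 (SE 0.24, edgeR adjusted p = 0.00178). This call was lost without S34F replicate 3 (edgeR adjusted p = 0.214), WT replicate 2 (edgeR adjusted p = 0.118) or WT replicate 3 (edgeR adjusted p = 0.192).

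PDLIM7, a PDZ and LIM domain protein of the actin cytoskeleton, had sites 761 bases apart at 176917594 and 176916833 of chromosome 5, minus strand. The proximal share was 28.1%, 14.6% and 49.3% in S34F replicates 1, 2 and 3, and 12.7%, 10.9% and 22.1% in WT replicates 1, 2 and 3. Here the genotypes overlapped, since S34F replicate 2 was below WT replicate 3, and both B2 libraries were the highest of their genotype. The difference was 9.51 points within B1 and 27.2 points within B2 (log2 odds ratio 1.17, SE 0.24, edgeR adjusted p = 4.21e-04). It was not called without S34F replicate 1 (edgeR adjusted p = 0.368), S34F replicate 3 (edgeR adjusted p = 0.225) or WT replicate 3 (edgeR adjusted p = 0.2).

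A change of similar size towards the distal site was in PON2, paraoxonase 2, an antioxidant enzyme of cell membranes. Its sites at 95041091 and 95041055 of chromosome 7, minus strand, lie 36 bases apart in coding sequence, so the frame is kept. The proximal share was 40.7%, 54.7% and 43.8% in S34F replicates 1, 2 and 3, and 77.3%, 81.2% and 81.9% in WT replicates 1, 2 and 3. The highest S34F library lay below the lowest WT library. The mean was 46.4% ± 7.36 in S34F cells and 80.1% ± 2.5 in WT cells (SD, n = 3 each), a change of -33.7 points (log2 odds ratio -2.21, SE 0.38, edgeR adjusted p = 5.60e-06). Depth was low, with 27, 53 and 80 reads in the S34F libraries and 66, 48 and 138 in the WT libraries. The 95% Wilson interval of S34F replicate 1 ran from 24.5% to 59.3%, and that of WT replicate 1 from 65.8% to 85.7%. Such intervals cover counting error only, and they take each read as a separate molecule. The cDNA was amplified and carries no molecular identifiers, so they may be too narrow. The adjusted p of edgeR was 0.0954 without S34F replicate 3 and 0.0974 without WT replicate 3.

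**Figure D2:**
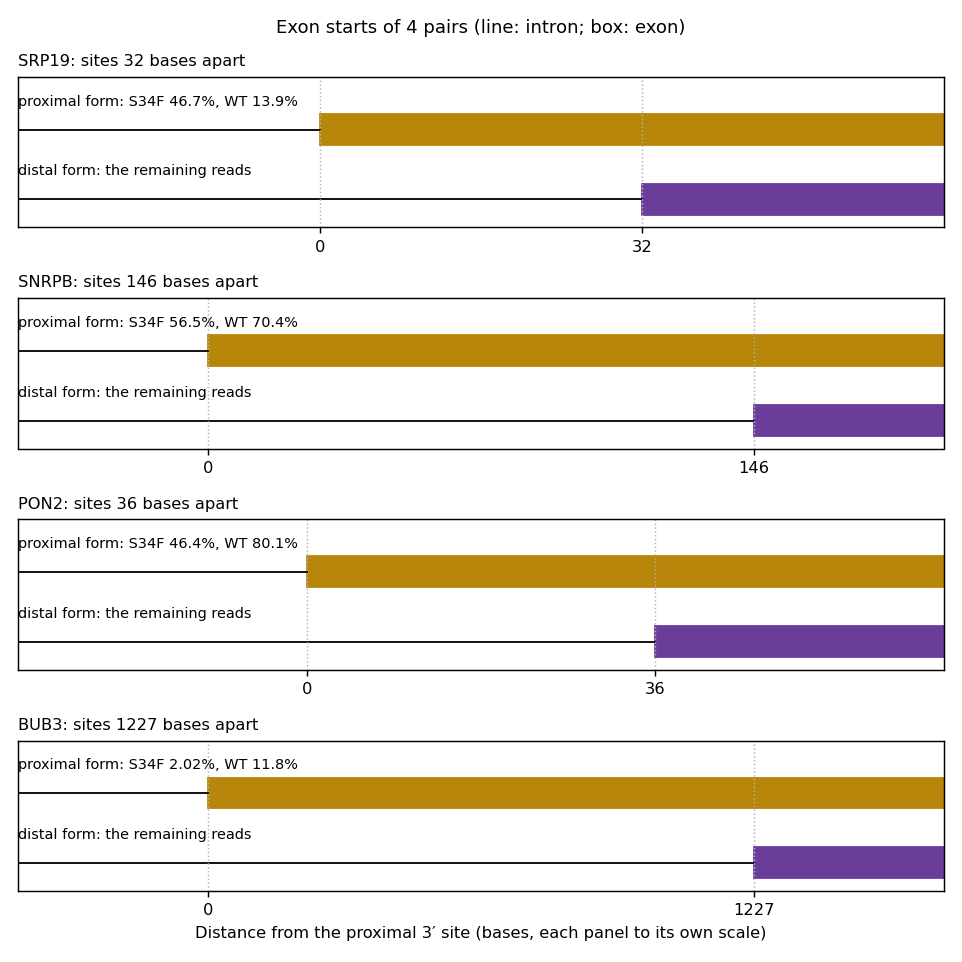
Position of the proximal and distal 3′ splice sites in SRP19, SNRPB, PON2 and BUB3, in bases from the proximal site, each panel to its own scale, with lines for introns, boxes for the start of the exon and the proximal share of each genotype (mean of 3 libraries). The stretch between the sites is exon in the proximal form alone, and it is 32 bases in SRP19, 146 in SNRPB, 36 in PON2 and 1227 in BUB3.

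SERBP1, an mRNA-binding protein that associates with ribosomes, showed the same direction at sites 45 bases apart, at 67890005 and 67889960 of chromosome 1, minus strand. The proximal share was 12.5%, 9.78% and 12.4% in S34F replicates 1, 2 and 3 and 29%, 33.6% and 28% in WT replicates 1, 2 and 3. The S34F libraries were tightly grouped and all under the WT libraries. The log2 odds ratio was -1.67 (SE 0.33, edgeR adjusted p = 2.04e-04), and the stretch between the sites is coding and a multiple of 3.

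PPIE, a cyclophilin that is itself a component of the spliceosome, favoured the proximal site in both genotypes. S34F replicates 1, 2 and 3 had 73.6%, 75% and 83.4% proximal reads, and WT replicates 1, 2 and 3 had 90.8%, 92.4% and 90.9%. The sites lie 39 bases apart at 40211047 and 40211086 of chromosome 1, plus strand. All S34F libraries were lower (log2 odds ratio -1.54, SE 0.31, edgeR adjusted p = 3.63e-04), by 17.3 points within B1 and 7.5 points within B2.

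Several falls were at the start of the last exon. EDF1, a transcriptional coactivator that also acts on collided ribosomes, has sites 151 bases apart at 139756948 and 139756797 of chromosome 9, minus strand. Its proximal share was 5.75%, 3.53% and 11% in S34F replicates 1, 2 and 3 and 20.5%, 19.7% and 22% in WT replicates 1, 2 and 3. The highest S34F library stayed below the lowest WT library, and the log2 odds ratio was -1.83 (SE 0.31, edgeR adjusted p = 3.39e-06).

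SNRPB encodes the Sm proteins B and B′ of spliceosomal small nuclear ribonucleoproteins, which differ by alternative splicing at the end of the gene. Its sites lie 146 bases apart in the last exon, at 2442585 and 2442439 of chromosome 20, minus strand. The proximal share was 56.8%, 51.5% and 61.3% in S34F replicates 1, 2 and 3 and 71.3%, 67.1% and 72.8% in WT replicates 1, 2 and 3. With 5105 reads in all, this was a deeply covered pair, and all S34F libraries were lower than all WT libraries. The log2 odds ratio was -0.87 (SE 0.15, edgeR adjusted p = 9.50e-06). This was the smallest log2 odds ratio of the 30, and edgeR adjusted p was 0.138 without S34F replicate 3, 0.184 without WT replicate 1, 0.0532 without WT replicate 2 and 0.112 without WT replicate 3.

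BUB3, a protein of the spindle checkpoint and a gene named in earlier work on S34F, had last-exon sites 1227 bases apart at 124923336 and 124924563 of chromosome 10, plus strand. The proximal form took 0.562%, 1.78% and 3.71% of reads in S34F replicates 1, 2 and 3, and 4.98%, 4.59% and 25.8% in WT replicates 1, 2 and 3. The genotypes did not overlap, but WT replicate 3 stood far above the other WT libraries. The difference was -3.61 points within B1 and -22.1 points within B2. The log2 odds ratio was -2.89 (SE 0.40, edgeR adjusted p = 2.08e-09), and edgeR adjusted p was 0.383 without S34F replicate 3 and 0.371 without WT replicate 3. These proximal reads are only those of isoforms whose exon reaches the distal site. With every isoform with the proximal junction counted, the log2 odds ratio was -2.37 (edgeR adjusted p = 6.43e-33). That count was not repeated with libraries left out. A second BUB3 pair, with sites 33 bases apart, averaged 95.9% ± 1.26 in S34F cells and 95% ± 0.474 in WT cells (SD, n = 3 each) and was not called.

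PIH1D1, a subunit of the R2TP complex that helps assemble other complexes, used its proximal site in 8.57%, 3.28% and 9.3% of reads in S34F replicates 1, 2 and 3. WT replicates 1, 2 and 3 had 17.7%, 22.3% and 27.1%, all higher. Its sites lie 91 bases apart in coding sequence on chromosome 19, minus strand, at 49954196 and 49954105. The log2 odds ratio was -1.87 (SE 0.41, edgeR adjusted p = 0.00149). The call was lost without S34F replicate 3 (edgeR adjusted p = 0.187) and without WT replicate 3 (edgeR adjusted p = 0.186).

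CCNB1, cyclin B1 of the G2/M transition, had a smaller change at sites 52 bases apart, at 68473066 and 68473118 of chromosome 5, plus strand. Proximal shares were 92.9%, 88.5% and 91.1% in S34F replicates 1, 2 and 3 and 95.7%, 96.8% and 95.6% in WT replicates 1, 2 and 3. The distal site remained minor in every library, with more use in each S34F library (log2 odds ratio -1.18, SE 0.26, edgeR adjusted p = 0.00166). It was called without S34F replicate 1. Leaving out any other library gave an edgeR adjusted p of 0.0813 (S34F replicate 2), 0.173 (S34F replicate 3), 0.0811 (WT replicate 1), 0.092 (WT replicate 2) or 0.163 (WT replicate 3).

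Very rare proximal forms were also among the calls. GSTP1, a glutathione transferase highly expressed in these cells, used a proximal site 100 bases before the main one in 0.187%, 0.304% and 0.286% of reads in S34F replicates 1, 2 and 3, and in 0.586%, 1.16% and 0.791% in WT replicates 1, 2 and 3. That was 29 of 12205 reads in S34F and 140 of 17430 in WT cells. All S34F libraries were lower (log2 odds ratio -1.76, SE 0.34, edgeR adjusted p = 1.17e-04), with an edgeR adjusted p of 0.0816 without S34F replicate 1 and 0.11 without WT replicate 2.

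The locus ENSG00000258674 on chromosome 19, for which no symbol was found, held a pair 157 bases apart with 0.398%, 0.36% and 0.286% proximal reads in S34F replicates 1, 2 and 3. WT replicates 1, 2 and 3 had 1.3%, 1.35% and 1.96%, all higher (log2 odds ratio -2.02, SE 0.41, edgeR adjusted p = 3.66e-04). A second pair there shares the proximal reads and sets them against a minor distal site 164 bases on (log2 odds ratio -1.87, edgeR adjusted p = 0.00322), so it is not a separate result. The first pair lost its call without S34F replicate 3 (edgeR adjusted p = 0.0812) or WT replicate 3 (edgeR adjusted p = 0.0816).

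**Figure D3:**
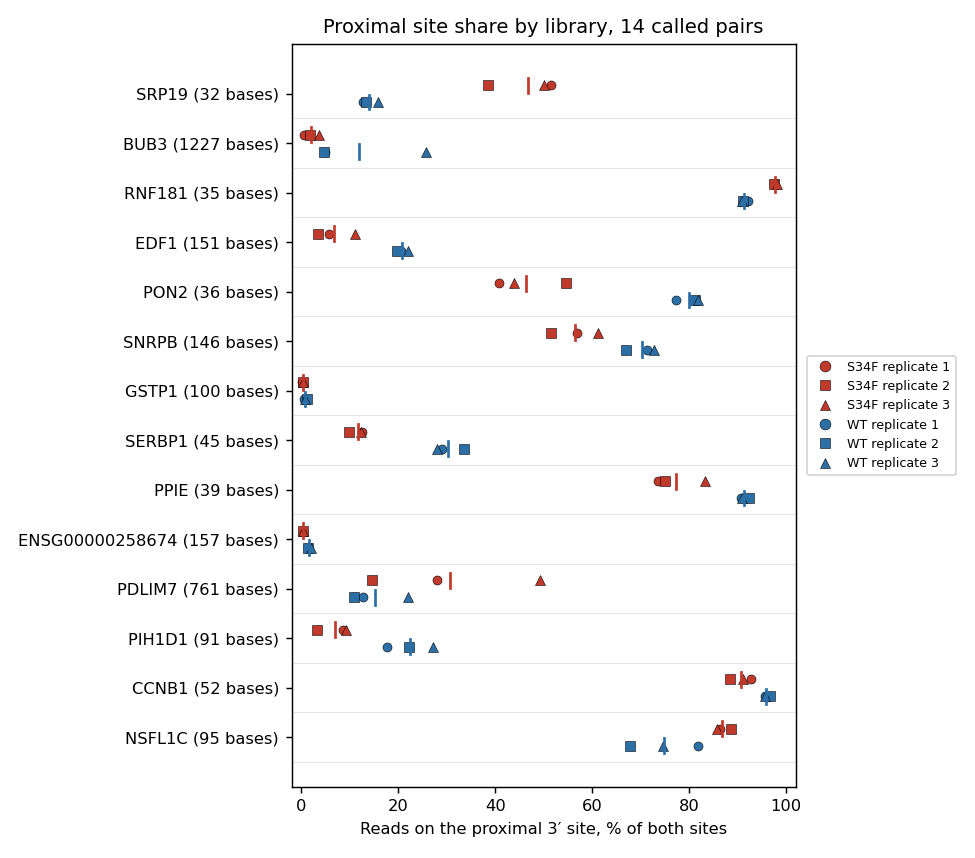
Proximal share in each library, in percent, for the 14 called pairs with the smallest adjusted p, with S34F drawn over WT in each row, each library as a point and the mean of 3 as a vertical mark. S34F libraries have higher shares than all WT libraries in SRP19, RNF181 and NSFL1C, overlap with them in PDLIM7 and have lower shares in the other 10 pairs.

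Of the other 16 called pairs, those of CHCHD7 and RPS14 are described as an earlier target and as a most-read pair, and the remaining 14 were named after their values were seen. All 16 lost their call without S34F replicate 3 (edgeR adjusted p of 0.0742 to 0.726) and without WT replicate 3 (edgeR adjusted p of 0.0731 to 0.727). Leaving out S34F replicate 1, S34F replicate 2, WT replicate 1 or WT replicate 2 ended 12, 9, 14 and 11 of these calls in turn, at edgeR adjusted p up to 0.735, 0.307, 0.488 and 0.299. The largest fall of all 30 was in APOO, a subunit of the mitochondrial MICOS complex, with 21.7%, 11.8% and 36.6% in S34F replicates 1, 2 and 3 and 62.3%, 46.4% and 69.2% in WT replicates 1, 2 and 3. No libraries overlapped, although the pair had 201 reads in all (log2 odds ratio -2.29, SE 0.52, edgeR adjusted p = 0.00213). Its sites are 102 bases apart in the 3′ UTR.

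SSR4, of the translocon-associated complex, had 2 called pairs that share a proximal site and its reads, with distal sites 776 and 771 bases on, and another isoform splices out an intron between the sites. The first averaged 7.38% ± 1.61 in S34F cells and 32.3% ± 15.9 in WT cells, and the second 0.517% ± 0.238 in S34F cells and 2.2% ± 0.985 in WT cells (SD, n = 3 each). ERP29, a chaperone of the endoplasmic reticulum, averaged 4.49% ± 3.03 in S34F cells and 12.9% ± 4.17 in WT cells. SEC13, of the COPII coat and the nuclear pore, averaged 78.6% ± 0.895 in S34F cells and 89.2% ± 2.8 in WT cells.

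Both remaining mitochondrial genes with a fall had shares of 0 in a library. METTL17, which acts in assembly of the mitochondrial ribosome, had 0%, 18.8% and 3.85% in S34F replicates 1, 2 and 3, and 21.4%, 22.7% and 26.9% in WT replicates 1, 2 and 3. The 0 of S34F replicate 1 was on 20 reads, which allows a share of up to 15% if each read is a separate molecule. CHCHD7, a small protein of mitochondria and one of the genes named in earlier work on S34F, had 6.25%, 0% and 8.54% in S34F replicates 1, 2 and 3, and 30.2%, 23.6% and 20.4% in WT replicates 1, 2 and 3. The S34F libraries of both genes were below every WT library, at log2 odds ratios of -2.35 in METTL17 (SE 0.66, edgeR adjusted p = 0.0349) and -2.22 in CHCHD7 (SE 0.59, edgeR adjusted p = 0.0207). In CHCHD7 the 0 was on 24 reads, which allows up to 12.5% on the same condition.

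ALKBH6, a member of the AlkB family of dioxygenases, averaged 7.73% ± 1.42 in S34F cells and 27.3% ± 0.925 in WT cells (SD, n = 3 each) at sites 32 bases apart. PSME2, a subunit of the proteasome activator PA28, averaged 2.15% ± 0.251 in S34F cells and 4.94% ± 0.406 in WT cells. LGALS1, the lectin galectin-1, averaged 1.54% ± 0.292 in S34F cells and 2.84% ± 0.0697 in WT cells. The smallest of the falls was in RPS14, a protein of the small ribosomal subunit, where 11 of 24981 S34F reads and 53 of 38153 WT reads used the proximal site. The libraries of RPS14 overlapped, and limma did not call it (adjusted p = 0.329). Nor did limma call ERP29 (adjusted p = 0.0862), METTL17 (adjusted p = 0.328) or CHCHD7 (adjusted p = 0.0917). Both SSR4 pairs also missed its threshold (limma adjusted p = 0.0557 at 776 bases and 0.101 at 771 bases).

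Of the rises in this group, MIR205HG, the host transcript of miR-205, had 25.8%, 29.2% and 52.2% proximal reads in S34F replicates 1, 2 and 3 and 7.63%, 18.1% and 13.8% in WT replicates 1, 2 and 3, at sites 1318 bases apart with an intron of another isoform between them. All S34F libraries were higher, most of all the B2 library (14.6 points within B1, 38.4 within B2). In MIR205HG the log2 odds ratio was 2.01 (SE 0.46, edgeR adjusted p = 0.0025), but 0.48 when every isoform with the proximal junction was counted (edgeR adjusted p = 0.546). That way of counting also ended the calls of RPS14 (edgeR adjusted p = 0.0538) and FKBP2 (edgeR adjusted p = 0.0532). TRMU, an enzyme that thiolates mitochondrial transfer RNA, averaged 96.7% ± 5.77 in S34F cells and 70.3% ± 2.32 in WT cells (SD, n = 3 each). It rested on 12, 10 and 27 reads in the S34F libraries, with 1 distal read among them, and limma did not call it (adjusted p = 0.261). FKBP2, a prolyl isomerase of the endoplasmic reticulum, averaged 98.8% ± 0.68 in S34F cells and 94.9% ± 1.31 in WT cells. Limma did not call FKBP2 (adjusted p = 0.0876). The locus ENSG00000223477.3, without a symbol, averaged 76.6% ± 2.52 in S34F cells and 49.1% ± 6.04 in WT cells.

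The base before the AG of the distal site could be read in 984 of the 1672 pairs. It was C in 729 (74.1%), A in 118 (12%), T in 96 (9.76%) and G in 41 (4.17%). In the 378 nearby pairs read the same way it was C in 67.2%, A in 18.3%, T in 8.2% and G in 6.35%. Called pairs differed in this base by direction, as counts without a test: of 13 readable pairs with a fall in proximal share, 12 had C, and 1, in CHCHD7, had A. Of 5 readable pairs with a rise, 2 had C, in TRMU and FKBP2, while SRP19 had T, RNF181 had G and NSFL1C had A.

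Over all readable pairs, called or not, the median change of the proximal share was -0.142 points where the distal site had C, 0.113 points with A, 0.19 points with G and 0.286 points with T. With C, 340 pairs were higher and 389 lower in S34F cells. With A, 70 were higher and 48 lower, with G 27 and 14, and with T 53 and 43. Pairs whose genotypes did not overlap were counted by base too. Of 729 pairs with C at the distal site, 49 were higher and 73 lower in S34F without overlap. Of 118 with A these were 10 and 6, of 41 with G 7 and 2, and of 96 with T 16 and 2. In either direction, 16% of all distant pairs and 14.3% of all events did not overlap. The split by base was not tested, and pairs of the same 5′ site share reads. The base of the proximal site was readable in 153 pairs. With T at the proximal site, 6 pairs were higher and 24 lower in S34F, with a median of -1.22 points, and with C, 52 were higher and 61 lower, with a median of -0.179 points. None of these 153 pairs was called by edgeR, which gave 22 with an unadjusted p under 0.05, and limma called 0. The readable pairs are a selected set, since an annotated transcript has to run through the site.

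Calls occurred at all distances. Of pairs 31 to 60 bases apart, 12 of 577 (2.08%) were called, 8 of them with a fall. The share was 8 of 600 (1.33%) at 61 to 150 bases, 5 of 366 (1.37%) at 151 to 500 bases and 5 of 129 (3.88%) beyond 500 bases. Those beyond 500 bases include both SSR4 pairs, which share proximal reads. They also include MIR205HG, not called when every isoform with the proximal junction was counted (edgeR adjusted p = 0.546). Those at 151 to 500 bases include both pairs of ENSG00000258674, which share proximal reads too. In pairs at the start of the last exon of both forms, 7 of 340 (2.06%) were called, and in the other 1332 pairs 23 (1.73%). Of the 30 called pairs, 7 had a distance that is a multiple of 3, and 19 had a transcript ID on both forms. At the limit of 30 bases, 26 pairs were exactly 31 bases apart and none of the 3 with most reads among different genes, in S100A2, RPLP0 and RPS3, was called, while 39 nearby pairs were exactly 30 bases apart.

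**Figure D4:**
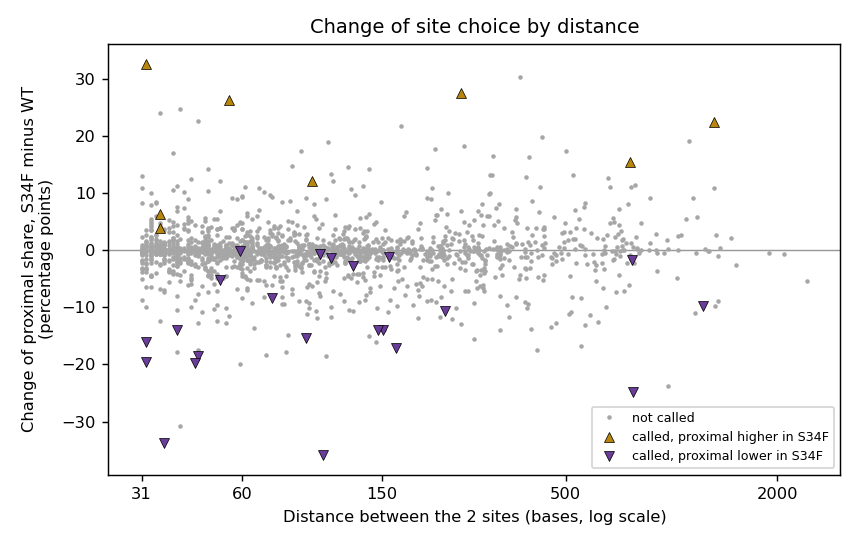
Difference of the mean proximal share, S34F minus WT, in percentage points, against the distance between the sites of each pair in bases on a log axis, with called pairs marked. Called pairs occur from 32 to 1318 bases, 22 below 0 and 8 above.

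Among the pairs with sites farthest apart were those of CANX, the chaperone calnexin (2091 bases), and SDC1, the proteoglycan syndecan-1 (1891 bases). CANX averaged 91.7% ± 6.93 in S34F cells and 92.3% ± 4.6 in WT cells, and SDC1 98.7% ± 0.984 in S34F cells and 99.1% ± 0.652 in WT cells (SD, n = 3 each). Neither was called, and their genotypes overlapped. Among the pairs with the most reads, PFN1, the actin-binding protein profilin-1, held 75940 reads and averaged 99.7% ± 0.112 in S34F cells and 99.6% ± 0.0735 in WT cells. ACTB averaged 98.5% ± 0.657 in S34F cells and 97.9% ± 0.572 in WT cells, and RPL35, of the large ribosomal subunit, 0.481% ± 0.222 in S34F cells and 0.739% ± 0.216 in WT cells. Neither passed the test. S100A2 had 95.8%, 94.4% and 93.8% in S34F replicates 1, 2 and 3 and 91.7%, 92% and 92.1% in WT replicates 1, 2 and 3, at sites 34 bases apart. Its genotypes did not overlap, edgeR did not call it (adjusted p = 0.0908) and limma did (adjusted p = 5.28e-07).

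Of 20 genes named in earlier work as targets of U2AF1 S34F, 6 held a distant pair, 17 pairs in all. Of these 17 pairs 2 were called, 1 each in BUB3 and CHCHD7, against 1.79% of all distant pairs and 1.08% of all events. Both calls were lost without S34F replicate 3 and without WT replicate 3. The CHCHD7 call was lost whichever library was left out, and limma did not make it (adjusted p = 0.0917). Whether 2 of 17 differs from these shares was not tested. In MED24, a Mediator subunit, 2 of 6 pairs did not overlap (against 16% of all distant pairs and 14.3% of all events). Changes ran from -4.76 to 1.24 points over the 6, and most of these pairs share a 5′ site, some with the same proximal reads. UPP1, uridine phosphorylase, had 2 of 5 pairs without overlap, with changes of -0.297 to 9.5 points, on as few as 20 reads in an S34F library, and 3 of its 5 pairs share a 5′ site and proximal reads. MACROH2A1, a histone variant, and CTNNB1, beta-catenin, overlapped between genotypes in each of their pairs.

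A list of RNA-binding proteins was made of SR proteins, hnRNP proteins and the factors that select 3′ sites. It leaves out others, such as SERBP1, whose pair was called. Of this list, 11 genes held 16 distant pairs. By edgeR none was called, against 1.79% of all distant pairs, 2 had an unadjusted p under 0.05, and limma called 0. In 3 pairs the libraries did not overlap between genotypes, against 16%. The widest difference was in SUGP1, a partner of the branch point complex, at sites 65 bases apart, with a mean of 3.84% in S34F cells and 17.4% in WT cells (edgeR adjusted p = 0.339). HNRNPK, which binds C-rich RNA, averaged 59.2% in S34F cells and 49.8% in WT cells (edgeR adjusted p = 0.338). Neither pair overlapped between genotypes, and a pair of RBM39 did not either (mean 2.34% in S34F cells and 0.444% in WT cells, edgeR adjusted p = 0.727). U2AF1 itself had a pair 644 bases apart, at 0.946% in S34F cells and 0.816% in WT cells.

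Transcript levels of the factors that select 3′ sites were compared as counts per gene. Of 26 listed genes, 23 were tested and 1 was called by edgeR, against 3.24% of all genes, and the median log2 fold change was 0.03, against 0.02 over all genes. The called gene was U2AF1L4, a paralog of U2AF1, at 11.6 ± 5.47 CPM in S34F cells and 45.1 ± 10.5 CPM in WT cells (SD, n = 3 each), a log2 fold change of -2.02 (SE 0.38, edgeR adjusted p = 0.00687). That call was lost without S34F replicate 3 (edgeR adjusted p = 0.115), WT replicate 2 (edgeR adjusted p = 0.0589) or WT replicate 3 (edgeR adjusted p = 0.127). U2AF1 was at 399 ± 148 CPM in S34F cells and 457 ± 138 CPM in WT cells (edgeR adjusted p = 0.764). Its counts do not separate mutant from normal alleles, so they do not check the labels.

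Summed counts of the genes that hold distant pairs were compared too. Of the 889 genes or loci, 26 (2.92%) were called at gene level, against 3.24% of all 7033 tested. None of the 28 genes with a called pair was called at gene level by edgeR, which gave 3 with an unadjusted p under 0.05, or by DESeq2, with log2 fold changes from -0.91 in SRP19 to 1.26 in ENSG00000223477.3. In these 28 genes the proximal share differed between genotypes while no change in summed counts passed the test of edgeR.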

How the data were processed

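The values deposited by the authors are raw read counts, 1 per isoform in each library, over 1 shared isoform set. Positions are in hg19, per the submitters' processing notes. Alignment, filtering and read assignment were not given in the sources used here. Pairs of 3′ sites were built from the deposited isoform models. For the proximal form, isoforms with the proximal junction were summed if the exon after it reaches the distal site. For the distal form, every isoform with the distal junction was summed. The members and gene lists were chosen with earlier results of these data known.

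Counts of both forms were tested with edgeR 4.0.16 (R 4.3.3), with terms for library and for form by B1/B2, and adjusted over 17250 events (Benjamini-Hochberg, 0.05). The prior degrees of freedom were infinite, so all events share 1 trended spread. Limma 3.58.1 (log odds, offset 0.5) and DESeq2 1.42.0 were alternatives. Gene counts used TMM, filterByExpr and a B1/B2 term. The tests were run on simulated data first. Sequences came from GENCODE 29 transcripts, with 6972 of 7679 models matched. Named pairs were the 14 smallest adjusted p (1 per gene and exon), the 5 with most reads, the 3 farthest and 3 nearest, and all in target genes; 1 of these is not reported here. Python 3.11.15, pandas 2.3.3, numpy 2.4.6 and matplotlib 3.10.9 were used.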

Additional observations from a re-analysis of the deposited data

How the results depend on the processing

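The number of distant pairs called (30 of 1672) was 6 in B1 libraries alone and 6 without the B1/B2 term. It was 7 with the libraries of isolate 2 summed and 1 with DESeq2. With all libraries thinned to equal depth, 5 of the 1313 pairs that kept 10 reads were called. Of 732 pairs with sites more than 100 bases apart, 14 were called. The number called ranged from 6 to 27 with 1 library left out. Every pair of the 30 that was still tested kept its direction under these settings. The number of pairs whose genotypes did not overlap (267 of 1672) was 670 in B1 libraries alone and 685 with isolate 2 summed. It was 170 of 1313 at equal depth, 440 of 3232 with no minimum per library and 116 of 732 beyond 100 bases. With 1 library left out it was 380 to 494. The shares of all events under these settings are not given here. By construction, fewer libraries separate by chance more often. The median change of -0.146 points was 0.00219 points when every isoform with the proximal junction was counted, and -0.171 to -0.0499 points with 1 library left out; the cause was not tested. The number of factor genes called (1) was 0 in B1 libraries alone, 0 with no B1/B2 term (edgeR gave 2 with unadjusted p under 0.05 in each), and 0 to 5 with 1 library left out. Of 667 alternative values for named pairs, 418 kept their side of the threshold, 247 no longer passed, 2 newly passed and 0 reversed.

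Across genotypes, the correlation of the deviations of same-numbered libraries over the pairs was 0.18 for number 3, the B2 libraries, but 0.0103 for number 1 and 0.00561 for number 2, so the numbers were not taken to pair the samples. With a replicate block in place of B1/B2, 22 distant pairs and 1 factor gene were called, and all 22 were among the 30.

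Depth limits these counts: S34F replicate 2 held 451540 reads, and pairs near 10 reads in a library show only large differences.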
